A study of Mus musculus with 10 samples.

Results

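The 6 genes described here encode surface ligands through which a tumour cell can meet T cells, natural killer cells and macrophages: Cd274, Cd276, Cd47, Pvr, Nectin2 and Nectin3. They were chosen by gene name from the 10735 gene entries of an RNA sequencing table, and all 6 were measured in all 10 libraries. One group was B16-F1ΔFOXC2, a derivative of the mouse melanoma line B16-F1 that the design text describes as lacking the forkhead transcription factor FOXC2 (5 libraries). The other group was wild-type (WT) B16-F1 (5 libraries). Both derive from a C57Bl/6 background, carry no other labelled alteration, received no agent, and were grown for 24 h in the same medium, at passages 5 to 10. The labels do not say how FOXC2 was removed or whether the ΔFOXC2 cells were 1 clone. They also do not say whether the libraries of a group came from independent derivations, so p-values measure the spread between cultures of 1 pair of lines. A difference between the lines that has another origin than FOXC2 cannot be told apart from the effect of its absence. Foxc2 itself was not analysed here, so the genotype labels stand as given.

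PD-L1, the product of Cd274, binds PD-1 on T cells and restrains them, and interferon signalling through STAT and IRF factors is known to raise its transcription. CD276 (B7-H3) is a relative of PD-L1 in the B7 family that many tumours carry. CD47 binds SIRPα on macrophages and inhibits engulfment. PVR (CD155) and nectin-2 (CD112) are read by T cells and natural killer cells through the activating receptor CD226 and the inhibitory receptor TIGIT. Nectin-3 is mainly an adhesion molecule that pairs with other nectins and with PVR at cell contacts, anchored to actin by afadin.

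The values are FPKM, fragment numbers per kilobase of transcript normalized to library size, computed by the authors. Because FPKM is scaled by transcript length, levels of different genes can be set side by side. That length depends on which transcripts were counted, which gene-level values do not show, so comparisons of level between genes are approximate. FPKM sums were 240441 to 251273 per library and medians 7.84 to 8.14, and read depth is unknown. The libraries separated by group on the first principal component, which held 53.5% of the variance. The melanocyte markers fixed for the cell type were all analysed, 10 of 10, with a summed level of 3981 to 4403 FPKM in ΔFOXC2 and 3292 to 3790 FPKM in WT libraries. Of these 3 were called higher in ΔFOXC2, Tyr, Trpm1 and Oca2, where 4.97% of all tested genes were. All 10 were higher with a limma adjusted p of at most 0.05 at any fold, against 20.7% of all tested genes. Of 14 leukocyte markers, 2 were analysed, Lyz2 and Cd68, with a summed level of 2.53 to 4.59 FPKM in ΔFOXC2 and 0.757 to 1.40 FPKM in WT libraries. Both were called higher in ΔFOXC2. The log2 difference was 2.36 for Lyz2 (limma adjusted p = 6.5e-05) and 0.94 for Cd68 (limma adjusted p = 0.00344). Cd68 was not called with a pseudocount of 1. The other leukocyte markers, Ptprc among them, were not analysed here. Of 8 endothelial markers, 1 was analysed, Pdpn, which lymphatic endothelium carries; it was lower in ΔFOXC2, at 0 to 0.118 FPKM, against 5.85 to 8.18 FPKM in WT libraries (limma adjusted p = 9.76e-09). Of 8 fibroblast markers, 1 was analysed, Col1a2, with 0.581 to 0.931 FPKM in ΔFOXC2 and 0.823 to 0.899 FPKM in WT libraries, and it was not called. The part of these marker differences in the results below was not tested. In bulk RNA, fewer cells that express a gene and less RNA per cell cannot be told apart.

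The question was which of these ligands depend on FOXC2 in the tumour cell. Differences are ΔFOXC2 minus WT on log2(FPKM + 0.1), from limma fitted across 10570 genes. A call needed a limma p, adjusted by Benjamini-Hochberg over all these genes, of 0.05 or less and a change of at least 1.5-fold. The design text gives its own ratios the other way round, WT over ΔFOXC2. In ΔFOXC2 cells 2 ligands fell, Cd276 and Nectin2. None of the other 4 was called in either direction. Across all tested genes 8.62% were called, 3.65% lower and 4.97% higher in ΔFOXC2. Below the fold threshold, Cd274 and Pvr lay higher in ΔFOXC2, so that 4 of 6 genes passed the adjusted p at any fold, where 41.6% of all tested genes did, 20.8% lower and 20.7% higher in ΔFOXC2. In the same 4 genes the groups did not overlap, which held for 30.0% of all tested genes. The median size of the log2 difference, without its sign, was 0.39 over the 6 genes and 0.17 over all tested genes.

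**Figure D1:**
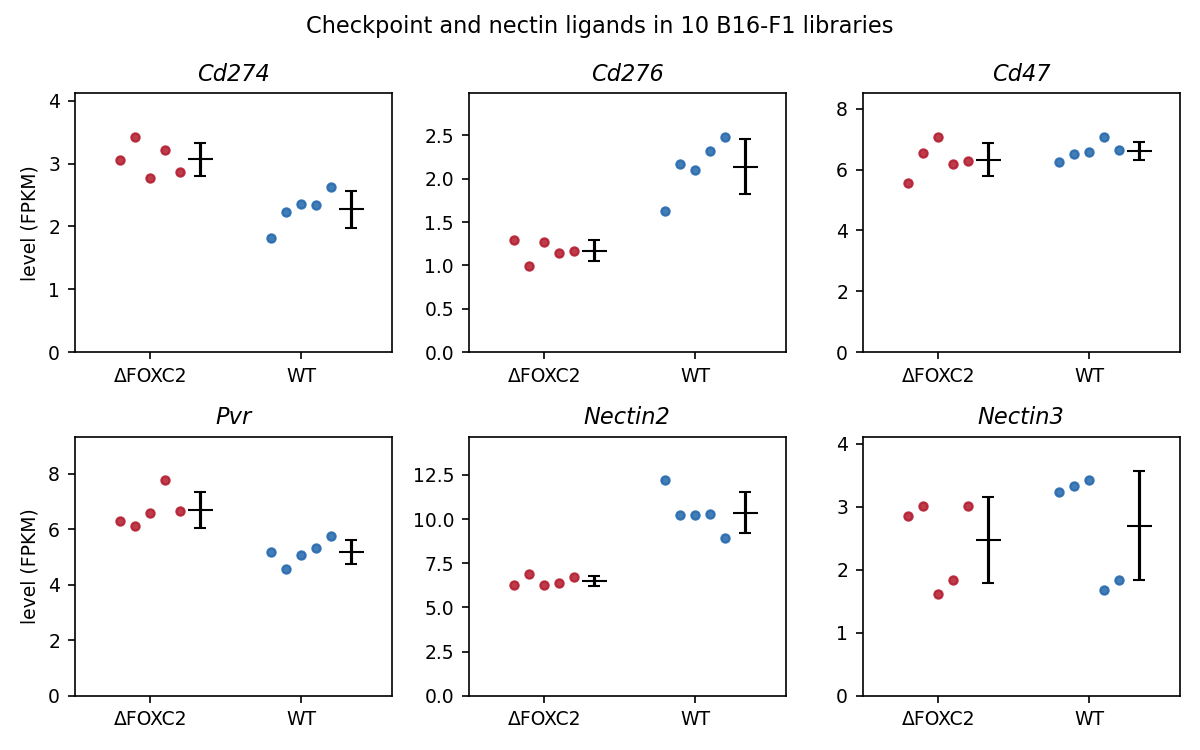
FPKM of each gene in the 5 ΔFOXC2 libraries (red, left) and the 5 WT libraries (blue, right), replicates 1 to 5 from left to right within a group; bars give the mean ± SD (n = 5). The groups are apart for Cd274, Cd276, Pvr and Nectin2, overlap for Cd47, and in Nectin3 each group splits into high and low libraries.

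Cd276 (ENSMUSG00000035914.11, GRCm38 chromosome 9, 58524298 to 58555437, minus strand) was on average the least abundant of the 6 in both groups. ΔFOXC2 replicates 1 to 5 had 1.29, 0.994, 1.27, 1.14 and 1.17 FPKM, against 1.63, 2.17, 2.10, 2.32 and 2.49 FPKM in WT replicates 1 to 5. Every ΔFOXC2 library lay under every WT library, and WT replicate 1 was the nearest to them. The means were 1.17 ± 0.119 FPKM in ΔFOXC2 and 2.14 ± 0.321 FPKM in WT cells (SD, n = 5 each), a log2 difference of -0.81 (SE 0.12, limma adjusted p = 0.000232). The level in ΔFOXC2 was 0.571 times that in WT, with a 95% interval of 0.478 to 0.682. With a pseudocount of 1 in place of 0.1 the log2 difference was -0.53, under the 1.5-fold threshold. Its mean level over the 10 libraries stood above that of 11.6% of tested genes.

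Nectin2 (ENSMUSG00000062300.14, chromosome 7, 19716644 to 19750483, minus strand) was the most abundant of the 6 in WT cells. ΔFOXC2 replicates 1 to 5 had 6.26, 6.87, 6.25, 6.37 and 6.73 FPKM, against 12.2, 10.3, 10.2, 10.3 and 8.91 FPKM in WT replicates 1 to 5. The ΔFOXC2 libraries lay close together, and the WT libraries lay above them with replicate 1 highest and replicate 5 lowest. Nectin2 averaged 6.50 ± 0.286 FPKM in ΔFOXC2 and 10.4 ± 1.18 FPKM in WT cells (SD, n = 5 each), and fell by 0.66 on the log2 scale (SE 0.074, limma adjusted p = 3.55e-05). Its level in ΔFOXC2 was 0.632 times that in WT, with a 95% interval of 0.565 to 0.708.

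Both genes that fell have a promoter window in the RefSeq promoter set of build GRCm38.p6, 250 bases before to 50 bases after the annotated start, and the windows of Cd276 (chr9:58554984-58555283, minus strand) and Nectin2 (chr7:19749524-19749823, minus strand) are shown because these genes changed in the same direction. The window of Cd274 (chr19:29367188-29367487, plus strand) is shown for comparison, as a gene that lay in the opposite direction. Sequences run 5′ to 3′ on the gene's strand, and capitals mark GGGCGG or its reverse complement, the GC box read by SP and KLF factors.
Cd276: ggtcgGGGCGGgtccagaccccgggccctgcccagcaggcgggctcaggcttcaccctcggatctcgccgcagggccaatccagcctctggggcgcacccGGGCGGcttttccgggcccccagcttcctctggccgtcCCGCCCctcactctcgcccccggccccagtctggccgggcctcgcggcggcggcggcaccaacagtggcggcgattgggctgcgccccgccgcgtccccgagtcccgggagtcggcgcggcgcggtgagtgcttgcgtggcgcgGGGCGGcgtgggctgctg
Nectin2: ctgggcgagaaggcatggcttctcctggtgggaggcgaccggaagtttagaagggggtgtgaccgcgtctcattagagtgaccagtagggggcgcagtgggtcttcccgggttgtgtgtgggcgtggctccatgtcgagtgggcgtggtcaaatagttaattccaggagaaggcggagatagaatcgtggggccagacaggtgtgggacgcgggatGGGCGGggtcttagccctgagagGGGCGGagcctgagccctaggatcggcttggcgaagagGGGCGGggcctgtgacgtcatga
Cd274: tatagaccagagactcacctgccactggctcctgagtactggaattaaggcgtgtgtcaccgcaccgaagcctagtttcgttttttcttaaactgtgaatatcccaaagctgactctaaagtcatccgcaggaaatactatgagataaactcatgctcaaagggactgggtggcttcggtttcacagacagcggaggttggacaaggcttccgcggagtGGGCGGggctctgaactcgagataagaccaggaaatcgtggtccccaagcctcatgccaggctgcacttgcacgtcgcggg

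The search covered both strands for 6 motifs, none of whose matches overlapped another motif. They were the forkhead core TGTTTAC, the interferon regulatory factor motif (GAAA, any 2 bases, GAAA), TTCNNNGAA of STAT factors, the E-box CACGTG, GGGANTTCC of NF-kB and the GC box. Of the 6 genes, 5 matched the promoter set, and Pvr was not among them. The GC box was found in the windows of all 5, with 4 matches in Cd276, 3 in Nectin2, 3 in Cd47, 5 in Nectin3 and 1 in Cd274. It is present in 35.7% of the 32851 promoter windows of the set. The forkhead core was found in none of the members' windows and is present in 3.65% of all windows, and the other 4 motifs were found in none either, against 3.44% (interferon regulatory factor), 8.30% (STAT), 7.15% (E-box) and 1.68% (NF-kB) of all windows. These counts say only which letters stand in these windows. The windows of Cd276, Nectin2 and Nectin3 lie inside the gene coordinates printed here, which place the starts of these genes further upstream. Sequence upstream of those starts was not searched. The Cd274 window had a GC content of 52.7%, equal to the median of all windows, and the other members' windows ranged from 62.7% in Nectin2 to 78.3% in Cd276.

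Cd274 (ENSMUSG00000016496.7, chromosome 19, 29367455 to 29388095, plus strand) was higher in every ΔFOXC2 library than in any WT library, without reaching the fold threshold. ΔFOXC2 replicates 1 to 5 had 3.06, 3.43, 2.77, 3.21 and 2.87 FPKM, against 1.81, 2.23, 2.35, 2.34 and 2.63 FPKM in WT replicates 1 to 5. The gap between the groups was narrow, with ΔFOXC2 replicate 3 just above WT replicate 5. The ratio of ΔFOXC2 to WT was 1.34 with a 95% interval of 1.15 to 1.56, which includes 1.5 (log2 difference 0.42, limma adjusted p = 0.00548).

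Pvr (ENSMUSG00000040511.14, chromosome 7, 19903578 to 19921160, minus strand) showed a difference of the same kind. ΔFOXC2 replicates 1 to 5 had 6.31, 6.12, 6.58, 7.77 and 6.66 FPKM, against 5.18, 4.57, 5.06, 5.31 and 5.77 FPKM in WT replicates 1 to 5. The groups did not overlap, and ΔFOXC2 replicate 4 was the highest library. Pvr averaged 6.69 ± 0.642 FPKM in ΔFOXC2 and 5.18 ± 0.432 FPKM in WT cells (SD, n = 5 each), a ratio of 1.29 with a 95% interval of 1.14 to 1.45 that lies under 1.5-fold (log2 difference 0.36, limma adjusted p = 0.00318).

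**Figure D2:**
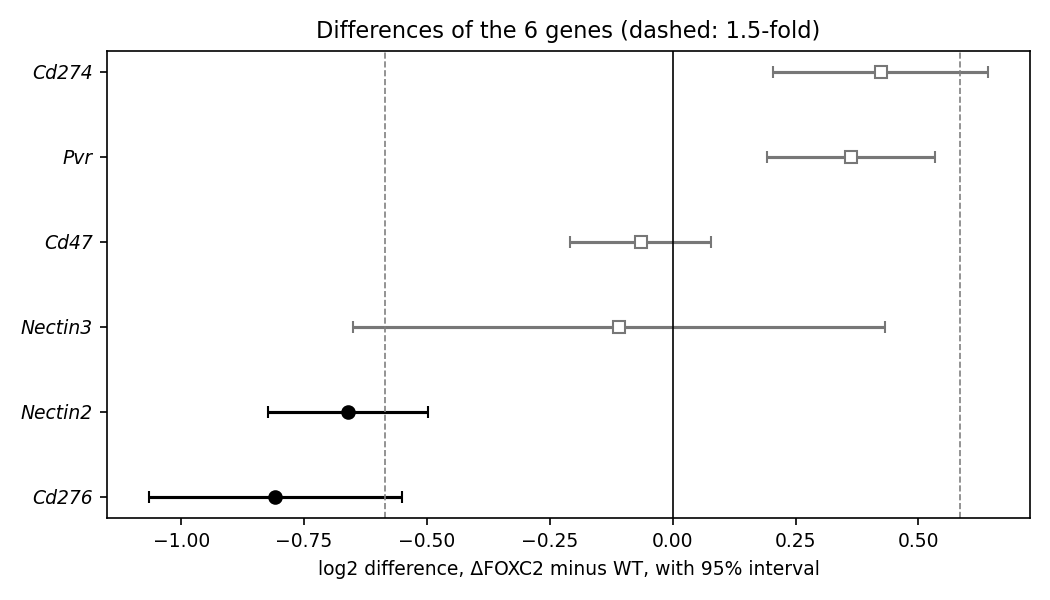
Log2 difference of each gene, ΔFOXC2 minus WT, with its 95% interval from limma (n = 5 per group); filled circles are called genes, open squares are not, and dashed lines mark 1.5-fold in either direction. Cd276 and Nectin2 lie beyond the left line, Cd274 and Pvr lie right of 0 and inside the right line, and the intervals of Cd47 and Nectin3 include 0.

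Cd47 (ENSMUSG00000055447.18, chromosome 16, 49855618 to 49915010, plus strand) showed no difference beyond the spread between libraries. ΔFOXC2 replicates 1 to 5 had 5.56, 6.53, 7.08, 6.18 and 6.29 FPKM, against 6.24, 6.50, 6.59, 7.08 and 6.64 FPKM in WT replicates 1 to 5. The groups shared most of their range, and ΔFOXC2 replicate 1 was the lowest library. The ratio of ΔFOXC2 to WT was 0.956 with a 95% interval of 0.865 to 1.06 (log2 difference -0.07, limma adjusted p = 0.460).

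Nectin3 (ENSMUSG00000022656.15, chromosome 16, 46387706 to 46498525, minus strand) varied widely within both groups. ΔFOXC2 replicates 1 to 5 had 2.86, 3.01, 1.62, 1.83 and 3.02 FPKM, against 3.23, 3.32, 3.42, 1.68 and 1.83 FPKM in WT replicates 1 to 5. In both groups the libraries fell into a high and a low set with nothing between 1.83 and 2.86 FPKM: ΔFOXC2 replicates 3 and 4 and WT replicates 4 and 5 were low. The ratio of ΔFOXC2 to WT was 0.927 with a 95% interval of 0.637 to 1.35, so that a 1.5-fold decrease could not be told from no difference (log2 difference -0.11, limma adjusted p = 0.757). Its spread within groups on the log2 scale, 0.45, was above that of 96.2% of tested genes, where Cd47 (0.10), Nectin2 (0.12), Pvr (0.13), Cd274 (0.16) and Cd276 (0.18) stood between the percentiles 38.6 and 75.0. GENCODE release M21 lists 10 transcripts for Nectin3, 8 of them protein-coding with lengths of 529 to 9116 bases, and a single one for Cd274, of 3622 bases. The gene-level table does not separate transcripts, and their part in the split of Nectin3 was not tested.

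**Figure D3:**
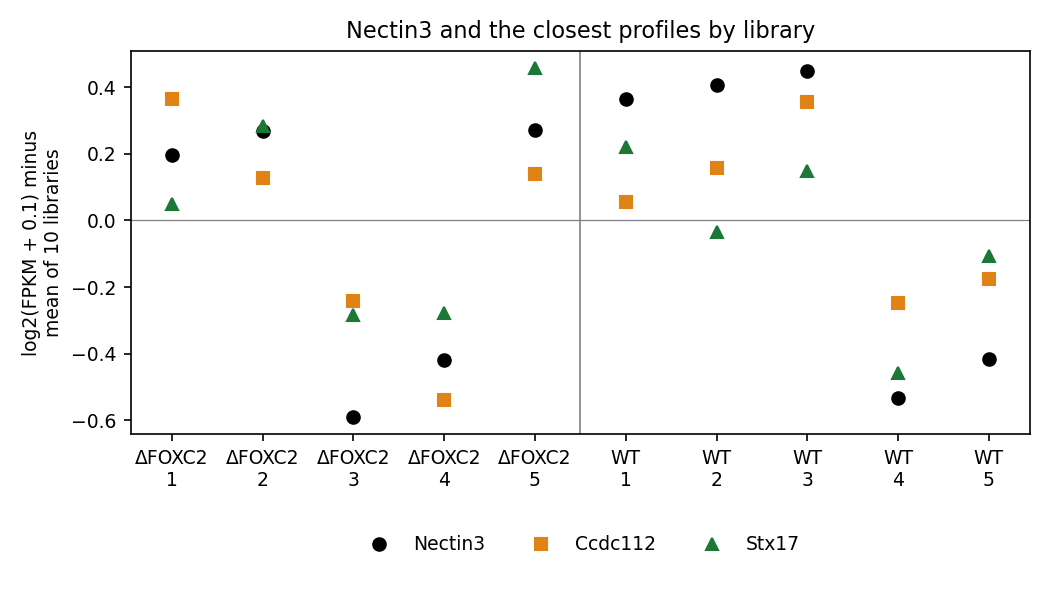
Log2(FPKM + 0.1) of Nectin3 (black circles) and of the 2 genes with the closest profiles, Ccdc112 (orange squares) and Stx17 (green triangles), each minus its own mean over the 10 libraries, by library (ΔFOXC2 left, WT right). ΔFOXC2 replicates 3 and 4 and WT replicates 4 and 5 lie below 0 for all 3 genes. Ccdc112 and Stx17 were chosen for this closeness to Nectin3.

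The genes with the most similar profiles over the 10 libraries were found by the root mean square distance between mean-centred log2 values. For Nectin3 these were Ccdc112, at a distance of 0.23, and the SNARE protein gene Stx17, at 0.24. Stx17 had 5.37, 6.34, 4.25, 4.27 and 7.17 FPKM in ΔFOXC2 replicates 1 to 5, against 6.07, 5.06, 5.77, 3.75 and 4.81 FPKM in WT replicates 1 to 5. The lowest libraries of Stx17 were the same 4 as those of Nectin3. Because Stx17 was chosen for its closeness to Nectin3 over these libraries, this is no separate evidence of a shared split. The CD47 receptor gene Sirpa, singled out after its values were seen, also split, with 60.9, 60.0, 30.1, 32.7 and 60.4 FPKM in ΔFOXC2 replicates 1 to 5 and 28.2, 56.3, 58.3, 31.5 and 32.4 FPKM in WT replicates 1 to 5. The low libraries of Sirpa were those of Nectin3 and, in addition, WT replicate 1.

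For the other members the distances were smaller. The log2 values were not scaled, so the distance also depends on how much a gene varies. It therefore does not rank similarity between members. Nearest to Cd276 were Atmin (0.11), which encodes a partner of the ATM kinase, and Ccdc88c (0.13), a binder of Dishevelled. Atmin had 4.69 FPKM in ΔFOXC2 and 8.21 FPKM in WT cells on average. Nearest to Nectin2 were Prdx2 (0.073), a peroxidase, and Acat1 (0.082), a mitochondrial thiolase, and Prdx2 averaged 20.3 FPKM in ΔFOXC2 and 31.7 FPKM in WT cells. Nearest to Cd274 were the nucleotide sugar transporter Slc35b3 (0.077) and the planar polarity gene Prickle2 (0.080). Nearest to Pvr were Nbdy (0.055), a component of decapping bodies, and the matrix gene Fbln1 (0.061), and nearest to Cd47 were Stxbp4 (0.047) and the Integrator subunit gene Ints2 (0.053). What a member shares with its neighbours beyond the profile was not tested, and the chromosomes of these neighbours were not compared.

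The order of the levels differed between the lines. In ΔFOXC2 cells Pvr (6.69 FPKM), Nectin2 (6.50) and Cd47 (6.33) stood at the top with overlapping ranges, so their order is not beyond the spread. Below them came Cd274 (3.07 FPKM) and Nectin3 (2.47), whose ranges overlapped, and Cd276 (1.17) stood apart at the bottom. In WT cells Nectin2 (10.4 FPKM), Cd47 (6.61) and Pvr (5.18) had ranges that did not overlap with their neighbours. Nectin3 (2.70 FPKM), Cd274 (2.27) and Cd276 (2.14) had overlapping ranges in WT. Summed over the 6 genes, the level was 26.2 ± 0.720 FPKM in ΔFOXC2 and 29.3 ± 0.780 FPKM in WT cells (SD, n = 5 each), given without a test.

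Ligands that share receptors or a family were also set against each other within each library. The ratio of Nectin2 to Pvr was 0.992, 1.12, 0.949, 0.819 and 1.01 in ΔFOXC2 replicates 1 to 5, against 2.36, 2.25, 2.02, 1.93 and 1.55 in WT replicates 1 to 5. The ligands were thus about equal in ΔFOXC2 libraries, while Nectin2 exceeded Pvr in all 5 WT libraries. The sum of Pvr and Nectin2 was 13.2 ± 0.609 FPKM in ΔFOXC2 and 15.5 ± 1.09 FPKM in WT cells (SD, n = 5 each). In the B7 family, the ratio of Cd274 to Cd276 was 2.38, 3.45, 2.17, 2.82 and 2.46 in ΔFOXC2 replicates 1 to 5, against 1.11, 1.03, 1.12, 1.01 and 1.06 in WT replicates 1 to 5. WT libraries held both at nearly equal levels, with an SD of the ratio of 0.0478, and ΔFOXC2 libraries held more Cd274. These ratios restate the single-gene differences and carry no test of their own.

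**Figure D4:**
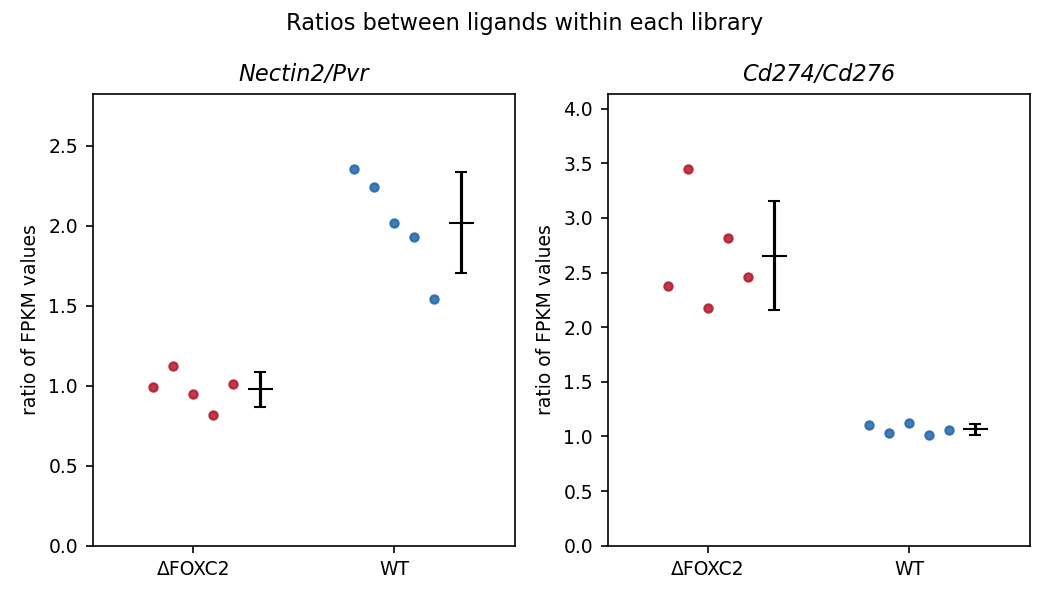
Ratio of the FPKM of Nectin2 to Pvr (left) and of Cd274 to Cd276 (right) within each library, ΔFOXC2 in red on the left and WT in blue on the right of each panel; bars give the mean ± SD (n = 5). The Nectin2/Pvr ratio averages 0.979 in ΔFOXC2 and 2.02 in WT, and the Cd274/Cd276 ratio 2.66 in ΔFOXC2 and 1.07 in WT.

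Pvr and Nectin2 lie 153 kb apart on chromosome 7, on the same strand. Between them stood a single tested gene, the Lutheran adhesion glycoprotein gene Bcam, named for its position. Bcam had 0.704 ± 0.0660 FPKM in ΔFOXC2 and 0.604 ± 0.141 FPKM in WT cells (SD, n = 5 each) and was not called (limma adjusted p = 0.312). Within 1 Mb of Nectin2, 0 of 30 other tested genes were called, with log2 differences from -0.53 to 0.39. The share called over all tested genes was 8.62%. Within 1 Mb of Pvr the only gene called was Nectin2. Over the 748 tested genes of chromosome 7 the median log2 difference was -0.03. Around Cd274 1 of 14 tested neighbours within 1 Mb was called, and around Cd276 0 of 20, by the same limma rule. Cd47 and Nectin3 share chromosome 16 at a distance of 3357 kb, with 4 tested neighbours each within 1 Mb, of which 1 was called lower near Cd47 and 0 near Nectin3.

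Partners and regulators were read from 5 lists. The shares over all tested genes were 4.97% called higher and 3.65% called lower in ΔFOXC2. At any fold they were 20.7% higher and 20.8% lower. Of 28 tested genes known to act on PD-L1 transcription, stability or glycosylation, 4 rose in ΔFOXC2, 0 fell and 24 were left uncalled. Their median log2 difference was -0.0092, against -0.0066 over all tested genes. Irf9, a factor of interferon signalling, averaged 5.98 ± 0.618 FPKM in ΔFOXC2 and 2.19 ± 0.265 FPKM in WT cells (SD, n = 5 each; log2 difference 1.41, limma adjusted p = 7.76e-07). B3gnt3, a glycosyltransferase that modifies PD-L1, rose (log2 difference 1.05), as did Stat3 (0.73) and Stat2 (0.69). With a pseudocount of 1 Stat2 was not called (log2 difference 0.47). Irf1, the factor that acts most directly on the human PD-L1 promoter, was not called and averaged 3.50 ± 0.532 FPKM in ΔFOXC2 and 4.16 ± 0.371 FPKM in WT cells (log2 difference -0.25, limma adjusted p = 0.0796). Cmtm6, which protects PD-L1 from degradation, averaged 9.79 ± 0.340 FPKM in ΔFOXC2 and 10.7 ± 0.431 FPKM in WT cells. Irf1 and Cmtm6 were named after their values were seen. At any fold, 7 of the 28 passed the adjusted p with higher and 8 with lower levels in ΔFOXC2.

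The share called higher over all tested genes was 4.97%. Of 5 tested checkpoint ligands outside the 6 genes, 2 rose in ΔFOXC2, 0 fell and 3 were not called. These were galectins: Lgals3 averaged 12.4 ± 2.11 FPKM in ΔFOXC2 and 0.726 ± 0.111 FPKM in WT cells (log2 difference 3.92), and Lgals9 115 ± 14.8 FPKM in ΔFOXC2 and 47.3 ± 3.84 FPKM in WT cells (log2 difference 1.27). Of 22 genes in that list 17 were not analysed here, the second PD-1 ligand Pdcd1lg2 among them.

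Among the junction partners of the nectins, 0 of 8 tested genes were called by limma, 2 had an adjusted p of at most 0.05 at any fold, and the median log2 difference was -0.06. Over all tested genes 4.97% were called higher and 3.65% lower, and 41.6% passed at any fold. The 2 of this list that passed at any fold went in opposite directions. Pard3 was lower (log2 difference -0.53, limma adjusted p = 0.000418) and Cadm4 higher (0.29, limma adjusted p = 0.0226). Both were named after their values were seen. Alpha-catenin (Ctnna1), the most abundant, averaged 120 ± 2.73 FPKM in ΔFOXC2 and 124 ± 5.77 FPKM in WT cells (log2 difference -0.05, limma adjusted p = 0.329). Of 10 tested CD47 partners and modifiers, 1 rose, 1 fell and 8 were not called. The integrin subunit Itgb3 rose, with 4.77 ± 0.424 FPKM in ΔFOXC2 and 1.17 ± 0.164 FPKM in WT cells (log2 difference 1.94). Thbs1, a secreted CD47 ligand, fell, with 1.24 ± 0.171 FPKM in ΔFOXC2 and 2.09 ± 0.284 FPKM in WT cells (log2 difference -0.71), and was not called with a pseudocount of 1. Of 6 tested genes listed as ligands of natural killer cell receptors, 1 rose and 0 fell. Whether each of them, Pcna and Bag6 included, is such a ligand in mouse was not tested. The gene that rose was the NKG2D ligand Raet1d, which averaged 13.7 ± 1.29 FPKM in ΔFOXC2 and 6.70 ± 0.677 FPKM in WT cells (log2 difference 1.02). Raet1d belongs to a family of near copies that can share reads, so its single values are uncertain. Raet1e, of the same list, was lower but not called (log2 difference -0.28, limma adjusted p = 0.00769). It averaged 4.14 FPKM in ΔFOXC2 and 5.05 FPKM in WT cells. H60b, under the filter and not tested, averaged 0.145 FPKM in ΔFOXC2 and 0.743 FPKM in WT cells. Both were named after their values were seen. Of the tested genes in that list, 2 were higher and 3 lower at any fold, against 20.7% and 20.8% of all tested genes. Pcna, the most abundant of that list, averaged 163 FPKM in ΔFOXC2 and 189 FPKM in WT cells and was not called.

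**Figure D5:**
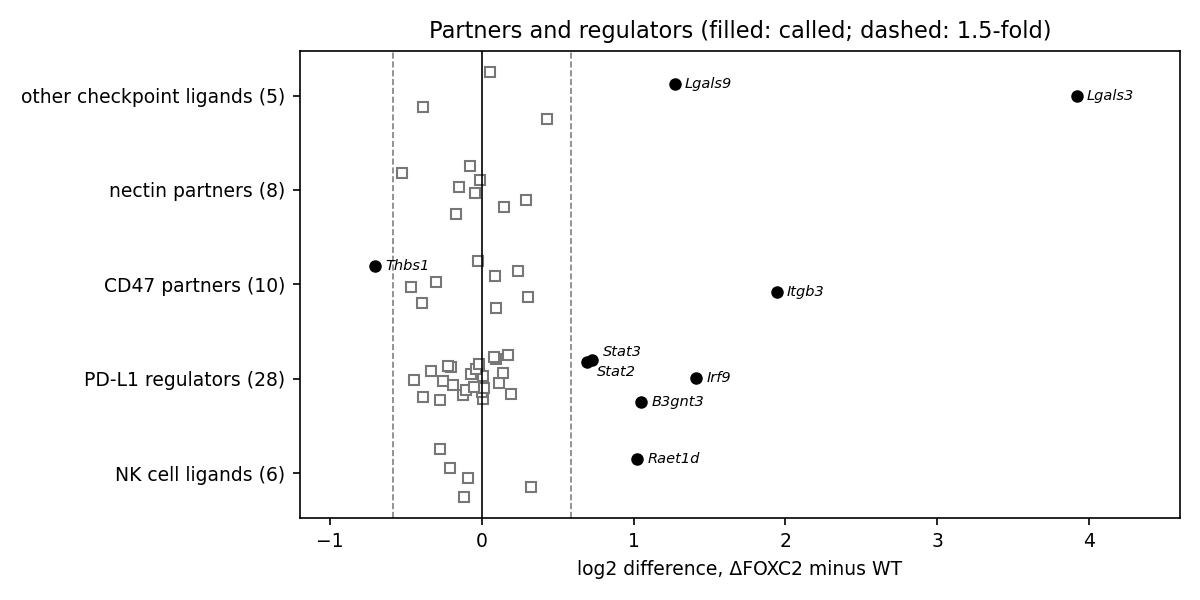
Log2 difference, ΔFOXC2 minus WT, of every tested gene in 5 lists of partners and regulators, 1 row per list with the number of tested genes in brackets; filled circles are called genes with their names, open squares are not called, and dashed lines mark 1.5-fold. Of the 9 called points, Thbs1 is the only one left of 0, and no nectin partner is called.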

How the data were processed

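RNA was measured by sequencing in 10 libraries of cultured mouse melanoma cells, 5 per group, seeded at 1000000 cells in medium with 10% serum. Per the labels' protocols, poly(A) RNA was selected, stranded libraries were made with dUTP and both ends were read for 150 cycles. Per the submitters' processing notes, FastQC, cutadapt, HISAT2 and StringTie were used with GRCm38, without versions or settings, and strand use in counting is not given in the sources used here. The FPKM values are the authors', 1 column per library, deposited for 10735 gene entries. FPKM holds no depth, so counting error is unknown.

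Groups were taken from sample titles. Genes averaging 0.5 FPKM or more across all libraries (10570 genes, all 6 members) entered a fit with limma 3.58.1 under R 4.3.3 (lmFit and eBayes with trend, two-sided, no covariates) on log2(FPKM + 0.1), a scale that compresses the change of low genes. Calls needed 0.05 or less after Benjamini-Hochberg adjustment over those genes, and 1.5-fold. The fit was tested on simulated data. The members and lists were chosen with earlier results of these data known. The rule for named genes took the 6 members, called genes of each list (up to 4 per direction), the most abundant gene of a list with under 2 called, and the 2 closest profiles per member. A result that the rule takes is not reported here. Sequences are from RefSeq, and transcript numbers from GENCODE M21. Alternatives changed the pseudocount, filter, scaling, variance model, block, call rule, test and libraries.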

Additional observations from a re-analysis of the deposited data

How the results depend on the processing

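Nectin2 and Pvr kept their direction in all 22 alternatives and Cd274 and Cd276 in all 21. Most of these could not have changed it. Changes of variance model, block, call rule or test leave the log2 difference as it is. Leaving out a single library cannot reverse a gene whose groups do not overlap. Only the pseudocount and scaling could move the direction of these genes. A filter at 5 FPKM gave no value for Cd274, Cd276 and Nectin3. The call of Nectin2 held throughout (log2 -0.71 to -0.60). Cd276 was not called with a pseudocount of 1 (-0.53), and without single libraries it ranged from -0.90 to -0.75. Without a fold threshold Cd274 (0.42) and Pvr (0.36) passed. Nectin3, never called, changed sign without ΔFOXC2 replicate 3 (0.025) and ranged from -0.26 to 0.025 without single libraries; the cause was not tested. By an exact permutation test over the 10 libraries (two-sided, unadjusted), Cd274, Cd276, Pvr and Nectin2 each gave p = 0.00794. This is the smallest value that 252 arrangements allow. Any gene whose groups do not overlap gives it, so for these genes the test adds nothing to the non-overlap. The groups did not overlap in 30.0% of all tested genes. The same exact permutation test gave p = 0.341 for Cd47 and p = 0.556 for Nectin3.

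Genes called higher and lower in ΔFOXC2 (525 and 386) numbered 338 and 230 with a pseudocount of 1, 217 and 123 with the 5 FPKM filter, which tests 6842 genes, and 2193 and 2199 without a fold threshold. With that filter 1 PD-L1 regulator rose and the CD47 partners gave 0 in each direction. With a pseudocount of 1, 0 CD47 partners fell. With no filter, 2 CD47 partners and 1 natural killer ligand fell. Without a fold threshold, higher and lower counts were 7 and 8 for PD-L1 regulators and 1 and 1 for nectin partners. They were 2 and 3 for the natural killer list, and 4 CD47 partners were lower. Of all tested genes 20.7% were higher and 20.8% lower by that rule. Beyond the changed thresholds and filters themselves, no cause of these shifts was tested.

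Whether replicate numbers pair the libraries was not settled. Same-numbered deviations correlated only weakly, from -0.12 to 0.14, but 3 of 5 ΔFOXC2 libraries correlated best with their own number. With the replicate block 526 and 390 genes were called and no call of the 6 genes changed. Among 12 groups of 5 values, none had a library set apart by Dixon's test. That test looks for a single library apart, so it cannot show the split of Nectin3 into high and low libraries. FPKM does not show read depth, and the levels of these genes, 1 to 12 FPKM, leave counting error unmeasured.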
